A study of Mus musculus with 16 samples.

Results

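The annexins are a family of genes for calcium-dependent, membrane-binding proteins, and 8 of them (Anxa1, Anxa2, Anxa3, Anxa4, Anxa5, Anxa6, Anxa7 and Anxa11) were followed across 4 populations of sorted mouse cells. They were chosen by gene symbol, from 50600 genes in the table of read counts, of which 16345 had enough counts to be tested. Bulk RNA sequencing covered 16 libraries, 4 per group, all of male mice of 13 to 14 weeks. The first group was CD11c-eYFP+ cells of the ischemic hemisphere of Tg(Itgax-Venus)1Mnz mice, in which the Itgax (CD11c) promoter drives a yellow fluorescent protein (CD11c brain cells below). The second group was CD11c-eYFP+ cells of the spleen of the same line (CD11c spleen cells), for which no disease state is given. The third group was microglia, the resident macrophages of the brain, sorted as CX3CR1+ cells from the ischemic ipsilateral hemisphere of CX3CR1CreERT2:Rosa26-tdT mice, in which Cx3cr1 drives an inducible Cre that switches on tdTomato (ischemic microglia). The fourth group was CX3CR1+ cells of the same line from control brain (control microglia). CD11c cells and microglia came from different mouse lines, so line and population cannot be told apart, and both reporters can also be active in other myeloid cells. Whether each library is a separate animal is not stated in the labels. The p-values hence weigh group differences only against the spread between these libraries, which may not be the spread between animals.

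Annexins bind negatively charged phospholipids, above all phosphatidylserine, when calcium rises. They gather at sites of membrane damage and along endosomes and secretory vesicles, and several hold an S100 protein at their N-terminal region. In myeloid cells annexin A1 is known as a glucocorticoid-induced protein that acts through formyl peptide receptors and limits leukocyte entry, annexin A2 with S100A10 as a surface site for plasminogen, and annexin A5 as the protein used to stain phosphatidylserine on dying cells.

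Libraries held 31569304 to 48245164 counts. All 8 annexins had counts in all 16 libraries, with a lowest count of 20 (Anxa1 in a control microglia library). Levels are given as CPM, counts per 1e6 counts of the library after scaling by the TMM method of edgeR. The 10 microglia markers summed to 12612 to 14106 CPM in CD11c brain cells, 1167 to 1669 in CD11c spleen cells, 31240 to 38861 in ischemic microglia and 41093 to 47319 in control microglia. The 7 dendritic cell markers summed to 8519 to 22613 CPM in CD11c brain cells, 6427 to 10956 in CD11c spleen cells, 162 to 388 in ischemic microglia and 477 to 996 in control microglia. In the CD11c groups most of this sum came from H2-Ab1 (means of 6461 CPM in brain and 3400 CPM in spleen) and H2-Aa (7565 and 4625 CPM). The list also holds Itgax, whose promoter drives the sorted reporter. Between the CD11c groups 5 of the 7 overlapped. Ccr7 was higher in CD11c brain cells without overlap, and Zbtb46 was lower (means of 24.2 and 73.3 CPM). CD11c brain cells thus carried both marker lists, with all 10 microglia markers and all 7 dendritic cell markers at 1 CPM or more. Within that group, replicates 1 and 2 stood apart from replicates 3 and 4, whose titles take another form: dendritic cell markers summed to 8519 and 11733 CPM in replicates 1 and 2 and to 18950 and 22613 CPM in replicates 3 and 4. Differences that rest on CD11c brain cells are therefore also given for each of these pairs of replicates, for the annexins against ischemic microglia and against CD11c spleen cells and for those list genes whose printed difference moved by over 1 log2 unit between the pairs or lost its call.

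Per exon length, the 8 annexins together were most abundant in CD11c brain cells and least abundant in control microglia. Their sum was 597 ± 147 CPM per kb of exon in CD11c brain cells, 305 ± 24.5 in CD11c spleen cells, 321 ± 18.3 in ischemic microglia and 202 ± 6.13 in control microglia (SD, n = 4 each). The CD11c brain libraries (451 to 734 CPM per kb) all lay above those of the other groups, and ischemic microglia (297 to 340) all lay above control microglia (194 to 207). The sums were not tested. The dominant member differed between groups. Anxa5 made up 39.6% ± 4.72 of the sum in CD11c brain cells. In CD11c spleen cells Anxa6 made up 41.4% ± 2.11. Anxa3 made up 45.0% ± 1.26 of the sum in ischemic microglia and 59.5% ± 4.22 in control microglia. Anxa2, at 17.4% ± 2.87 in CD11c brain cells and 15.6% ± 1.49 in CD11c spleen cells, was 5.48% ± 0.184 of the sum in ischemic microglia and 0.699% ± 0.211 in control microglia.

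**Figure D1:**
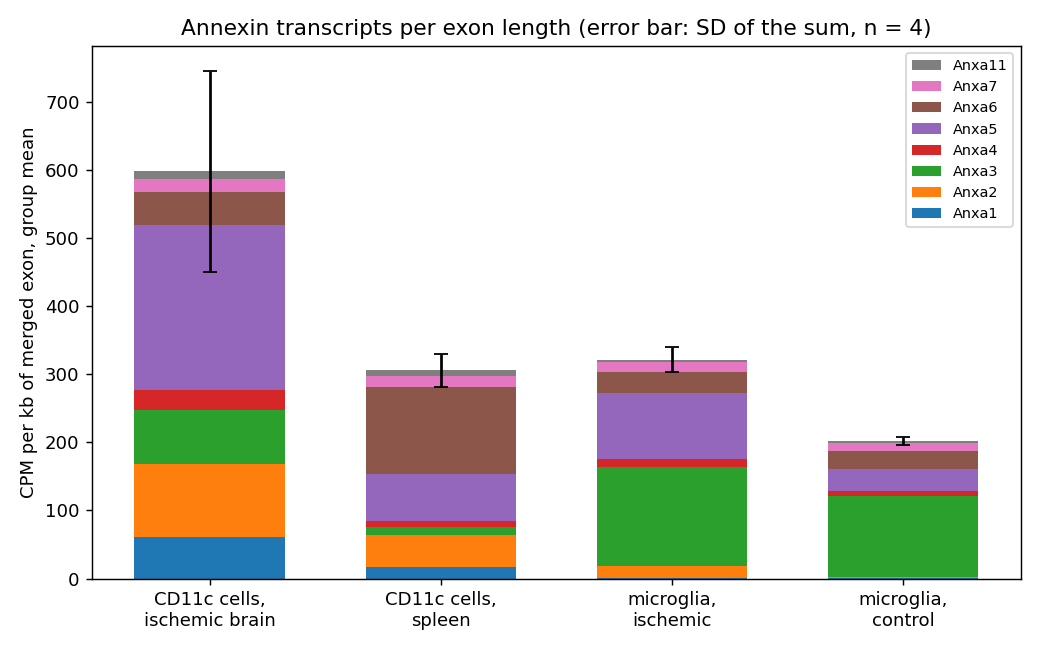
Stacked bars show the mean level of each of the 8 annexins in CPM per kb of merged exon in the 4 groups, and the error bar is the SD of the sum over 4 libraries. The sum is 597 in CD11c brain cells, where Anxa5 takes the widest band, 305 in CD11c spleen cells, where Anxa6 does, and 321 and 202 in ischemic and control microglia, where Anxa3 does.

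Anxa2, Anxa4 and Anxa5 were higher in ischemic than in control microglia and higher again in CD11c brain cells. Anxa6 was called in the same direction in both comparisons, with smaller differences (log2 0.27 and 0.67). Anxa7 (0.28 and 0.31) was called only in the second. Promoter sequences are shown for Anxa2, Anxa4 and Anxa5, which had the largest differences between the microglia groups. Of the 8 genes, 6 had an entry in the RefSeq promoter table (GRCm38.p6), and the stretch printed is the part upstream of the first annotated exon, with capitals for matches to 12 short motifs searched on both strands.
Anxa2, chr9:69453433-69453619, plus strand: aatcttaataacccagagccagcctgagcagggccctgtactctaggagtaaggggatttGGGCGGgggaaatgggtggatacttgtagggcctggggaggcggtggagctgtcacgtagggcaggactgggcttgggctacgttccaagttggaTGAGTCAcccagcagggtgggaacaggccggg
Anxa4, chr6:86793585-86793834, minus strand: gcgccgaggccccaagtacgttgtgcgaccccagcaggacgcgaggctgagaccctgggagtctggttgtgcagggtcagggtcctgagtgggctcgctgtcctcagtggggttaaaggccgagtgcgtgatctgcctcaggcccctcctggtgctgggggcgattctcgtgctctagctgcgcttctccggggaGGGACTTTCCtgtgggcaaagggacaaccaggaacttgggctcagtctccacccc
Anxa5, chr3:36475895-36476137, minus strand: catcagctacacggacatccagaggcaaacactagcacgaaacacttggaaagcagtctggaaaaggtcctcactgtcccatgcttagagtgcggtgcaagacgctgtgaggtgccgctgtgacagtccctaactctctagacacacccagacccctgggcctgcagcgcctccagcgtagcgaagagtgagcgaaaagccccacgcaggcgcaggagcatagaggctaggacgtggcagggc
Positions are counted from the RefSeq start site, and the windows span −250 to −64 for Anxa2, −250 to −1 for Anxa4 and −250 to −8 for Anxa5. The Anxa2 window ends at −64 because the annotated gene begins upstream of the RefSeq start. The capitals in Anxa2 are a GC box (GGGCGG) at −190 and an AP-1 motif (TGANTCA) at −95. Over the same span the GC box is found in 22.2% of 32851 promoters and the AP-1 motif in 5.14%. The capitals in Anxa4 are a match to the NF-kB consensus at −55, which has a match in 3.90% of promoters over the same span, while the exact letters of Anxa4 occur in 0.14%. In Anxa5 none of the 12 motifs matched in this window. The other motifs were the cyclic AMP element (TGACGTCA), the ETS motif (GAGGAA), the TATA box (TATAAA), the interferon gamma element GAS (TTCNNNGAA), the E-box (CACGTG), the C/EBP motif (TTGCNNAA), the CCAAT box, the interferon-stimulated element and the glucocorticoid response element. No printed matches overlap each other. These matches describe letters in the windows and were not linked to the levels.

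Anxa2 (ENSMUSG00000032231, chr9:69453620-69491795, plus strand), which links membranes to actin and holds S100A10, showed the widest step between the microglia groups. Its levels were 578, 448, 294 and 259 CPM in CD11c brain cells, 180, 207, 163 and 158 CPM in CD11c spleen cells, 66.7, 62.0, 62.2 and 71.9 CPM in ischemic microglia and 3.07, 5.46, 5.55 and 7.05 CPM in control microglia. The 4 groups form 4 separate steps with no overlap between neighbours. Ischemic microglia had 12.4-fold more Anxa2 than control microglia (log2 3.64 ± 0.26, SE; edgeR adjusted p = 1.3e-07). CD11c brain cells stood 6.01-fold above ischemic microglia (log2 2.59 ± 0.25; adjusted p = 5.28e-07) and 1.16 ± 0.23 log2 units above CD11c spleen cells (adjusted p = 0.000432). The 7 monocyte markers summed to 148 to 205 CPM in ischemic microglia, with 4 of them at 1 CPM or more, and to 128 to 248 CPM in control microglia, with 2 at 1 CPM or more, and none was at 0 throughout. These sums overlapped, but most of each came from 1 marker, F13a1, with means of 149 CPM in ischemic and 184 CPM in control microglia. Plac8 moved with Anxa2, at 2.10 to 10.5 CPM in ischemic and 0.664 to 1.09 CPM in control microglia, as did Vcan, at 0.889 to 1.16 and 0.535 to 0.70 CPM, both without overlap. Ccr2 ran the other way without overlap, at 12.1 to 15.8 CPM in ischemic and 16.4 to 34.8 CPM in control microglia. The part of these markers in the Anxa2 difference between the microglia groups was not tested. In CD11c brain cells the monocyte markers summed to 1115 to 1781 CPM with all 7 at 1 CPM or more, and the dendritic cell markers to 8519 to 22613 CPM, against 162 to 388 CPM in ischemic microglia. Both sums were thus high together with Anxa2. All 7 dendritic cell markers and 5 of 7 monocyte markers lay above ischemic microglia without overlap, while F13a1 and Vcan overlapped. F13a1 had 87 and 55.7 CPM in CD11c brain replicates 3 and 4, against 128 to 185 CPM in ischemic microglia. The part of both lists in the Anxa2 difference between CD11c brain cells and ischemic microglia was not tested. In bulk RNA, more cells with a transcript and more transcript per cell cannot be told apart, here or in the results that follow.

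Anxa5 (ENSMUSG00000027712, chr3:36448923-36475894, minus strand), which forms lattices on phosphatidylserine, had 560, 555, 270 and 332 CPM in CD11c brain cells, 143, 110, 126 and 113 CPM in CD11c spleen cells, 170, 162, 169 and 186 CPM in ischemic microglia and 46.5, 59.3, 59.5 and 70.9 CPM in control microglia. All ischemic microglia libraries lay above all control microglia libraries, and all CD11c brain libraries lay above both. The rise in ischemic microglia was 2.91-fold (log2 1.54 ± 0.20, SE; edgeR adjusted p = 3.38e-05). CD11c brain cells were 1.32 ± 0.20 log2 units above ischemic microglia (adjusted p = 6.2e-05) and 1.80 ± 0.20 above CD11c spleen cells (adjusted p = 9.51e-07).

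Anxa4 (ENSMUSG00000029994, chr6:86736840-86793584, minus strand), an annexin best known from epithelia that aggregates membranes, had 186, 180, 83.9 and 97.4 CPM in CD11c brain cells, 47.2, 37.7, 41.8 and 34.5 CPM in CD11c spleen cells, 58.2, 52.5, 58.2 and 60.8 CPM in ischemic microglia and 25.5, 30.6, 28.6 and 30.9 CPM in control microglia. The order of the groups was that of Anxa5, with the CD11c brain libraries highest and the control microglia libraries lowest. Anxa4 was 0.99 ± 0.21 log2 units higher in ischemic than in control microglia (edgeR adjusted p = 0.00153). In CD11c brain cells it was 1.25 ± 0.21 above ischemic microglia (adjusted p = 0.000151) and 1.76 ± 0.21 above CD11c spleen cells (adjusted p = 1.94e-06). The lower levels of Anxa4 and Anxa5 in CD11c spleen cells than in ischemic microglia were small (log2 −0.51 ± 0.20 and −0.48 ± 0.20; adjusted p = 0.0353 and 0.0383). For both genes that call was lost with library totals as the only scaling and on leaving out any ischemic microglia library or CD11c spleen replicate 2, 3 or 4.

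Anxa1 (ENSMUSG00000024659, chr19:20373428-20390944, minus strand), the glucocorticoid-induced member, was far higher in both CD11c groups than in microglia, and no difference between the microglia groups was detectable at this depth. It had 203, 218, 138 and 156 CPM in CD11c brain cells, 55.8, 46.3, 39.4 and 50.4 CPM in CD11c spleen cells, 1.78, 1.36, 1.20 and 1.96 CPM in ischemic microglia and 0.500, 1.61, 1.25 and 2.22 CPM in control microglia. In microglia this was 46 to 74 counts per ischemic library and 20 to 77 counts per control library, and the 2 microglia groups overlapped. CD11c brain cells had 114-fold more Anxa1 than ischemic microglia (log2 6.83 ± 0.33, SE; edgeR adjusted p = 4.61e-10) and 1.90 ± 0.26 log2 units more than CD11c spleen cells (adjusted p = 9.06e-06). CD11c spleen cells were 4.93 ± 0.31 log2 units above ischemic microglia (adjusted p = 7.99e-10). Monocyte marker sums followed the same order of groups, at 1115 to 1781 CPM in CD11c brain cells, 704 to 811 CPM in CD11c spleen cells and 148 to 205 CPM in ischemic microglia. Single markers did not all do so: between the CD11c groups 2 of 7 were higher in CD11c brain cells without overlap, 1 was lower and 4 overlapped. The dendritic cell markers were also high in both CD11c groups. The part of both lists in the Anxa1 differences was not tested. The difference between ischemic and control microglia was 0.19 ± 0.31 (adjusted p = 0.685) and changed sign, to −0.10, without control replicate 1, the lowest library.

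Anxa3 (ENSMUSG00000029484, chr5:96793339-96845966, plus strand), described in rat brain as a microglial protein, was the member with its highest level in microglia. Its levels were 272, 301, 282 and 306 CPM in CD11c brain cells, 38.3, 43.7, 64.4 and 31.9 CPM in CD11c spleen cells, 564, 479, 516 and 549 CPM in ischemic microglia and 478, 449, 405 and 421 CPM in control microglia. CD11c brain cells lay between the microglia and the spleen cells, and their 4 libraries were close to each other. They had less Anxa3 than ischemic microglia (log2 −0.86 ± 0.16; edgeR adjusted p = 0.00039) and 6.51-fold more than CD11c spleen cells (log2 2.70 ± 0.17; adjusted p = 7.93e-10). The 10 microglia markers moved with Anxa3 between CD11c cells and ischemic microglia. They summed to 12612 to 14106 CPM in CD11c brain cells, 1167 to 1669 in CD11c spleen cells and 31240 to 38861 in ischemic microglia. Between the microglia groups they did not, with sums of 41093 to 47319 CPM in control microglia. There 7 of 10 markers were lower in ischemic microglia without overlap and 3 overlapped. Their part in the Anxa3 differences was not tested. All ischemic microglia libraries exceeded all control libraries, by 0.27 ± 0.16 log2 units, which did not pass (adjusted p = 0.2). With only these 8 libraries in the fit it passed (0.30; adjusted p = 0.0142).

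Anxa6 (ENSMUSG00000018340, chr11:54979108-55033445, minus strand), which carries a duplicated annexin core and acts on endosomal cholesterol, was the member with its highest level in spleen. It had 136, 135, 149 and 151 CPM in CD11c brain cells, 390, 404, 384 and 307 CPM in CD11c spleen cells, 87.4, 80.8, 95.0 and 96.0 CPM in ischemic microglia and 66.2, 74.5, 77.8 and 78.6 CPM in control microglia. The CD11c spleen libraries all lay above those of the other 3 groups. CD11c brain cells were lower than CD11c spleen cells (log2 −1.38 ± 0.10; edgeR adjusted p = 5.72e-09) and 0.67 ± 0.10 log2 units above ischemic microglia (adjusted p = 5.53e-05). B cell markers were high in the same spleen libraries: the 5 markers summed to 10.8 to 17.0 CPM in CD11c brain cells, with 2 of them at 1 CPM or more, and to 2229 to 2927 CPM in CD11c spleen cells, with all 5 at 1 CPM or more. The 7 T cell markers were likewise high there, with sums of 5.74 to 13.7 CPM in CD11c brain cells, where 4 reached 1 CPM, and 240 to 465 CPM in CD11c spleen cells, where all 7 did. The 4 NK cell markers summed to 0.252 to 1.80 CPM in CD11c brain cells, with none at 1 CPM and Ncr1 at 0, and to 16.8 to 42.2 CPM in CD11c spleen cells, with all 4 at 1 CPM or more. Every marker of these 3 lists was lower in CD11c brain cells without overlap, and their part in the Anxa6 difference was not tested. Between ischemic and control microglia Anxa6 differed by 0.27 ± 0.10 (adjusted p = 0.0411). That call was lost with library totals as the only scaling (0.12; adjusted p = 0.44) and without any control library or ischemic replicate 1, 3 or 4 (adjusted p 0.0617 to 0.135).

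Anxa11 (ENSMUSG00000021866, chr14:25842156-25886804, plus strand), which binds RNA granules and lysosomes and holds S100A6, had 47.6, 64.6, 40.7 and 37.1 CPM in CD11c brain cells, 34.6, 35.9, 37.7 and 37.8 CPM in CD11c spleen cells, 13.8, 18.1, 13.1 and 12.3 CPM in ischemic microglia and 11.0, 10.5, 12.2 and 13.1 CPM in control microglia. Both CD11c groups lay above both microglia groups. The step of CD11c brain cells over ischemic microglia was 3.31-fold (log2 1.73 ± 0.16; edgeR adjusted p = 3.16e-07). Against CD11c spleen cells it was 0.38 ± 0.15 (adjusted p = 0.0395), the libraries overlapped, and the call was lost without CD11c brain replicate 1 (adjusted p = 0.0797) or 2 (log2 0.17; adjusted p = 0.269) or without any spleen library. Between ischemic and control microglia the difference was 0.29 ± 0.16 and did not pass (adjusted p = 0.159). An antisense gene, Anxa11os, shares 2.73% of the Anxa11 exon length on the other strand. The strand setting of the counting is not given in the sources used here.

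Anxa7 (ENSMUSG00000021814, chr14:20455260-20480133, minus strand), also called synexin and known to promote membrane fusion, varied least among the 8 members. It had 130, 127, 99.1 and 93.1 CPM in CD11c brain cells, 98.9, 93.5, 82.2 and 101 CPM in CD11c spleen cells, 91.8, 87.5, 88.9 and 92.8 CPM in ischemic microglia and 70.1, 80.9, 70.9 and 75.6 CPM in control microglia. The ischemic microglia libraries all lay above the control libraries, but the difference of 0.28 ± 0.11 log2 units did not pass (edgeR adjusted p = 0.0534). It passed with limma-voom (adjusted p = 0.0494), DESeq2 (0.0224), DESeq2's size factors in edgeR (0.0365), a stricter filter (0.0425) and only these 8 libraries (0.00289). CD11c brain cells were 0.31 ± 0.11 above ischemic microglia (adjusted p = 0.0288). That call was lost without CD11c brain replicate 1 or 2 or ischemic replicate 2 or 3. Against CD11c spleen cells the difference of 0.26 ± 0.11 (adjusted p = 0.0441) turned to −0.01 with library totals as the only scaling, and fell to 0.15 without CD11c brain replicate 1 (adjusted p = 0.231) and 0.17 without replicate 2 (0.209).

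**Figure D2:**
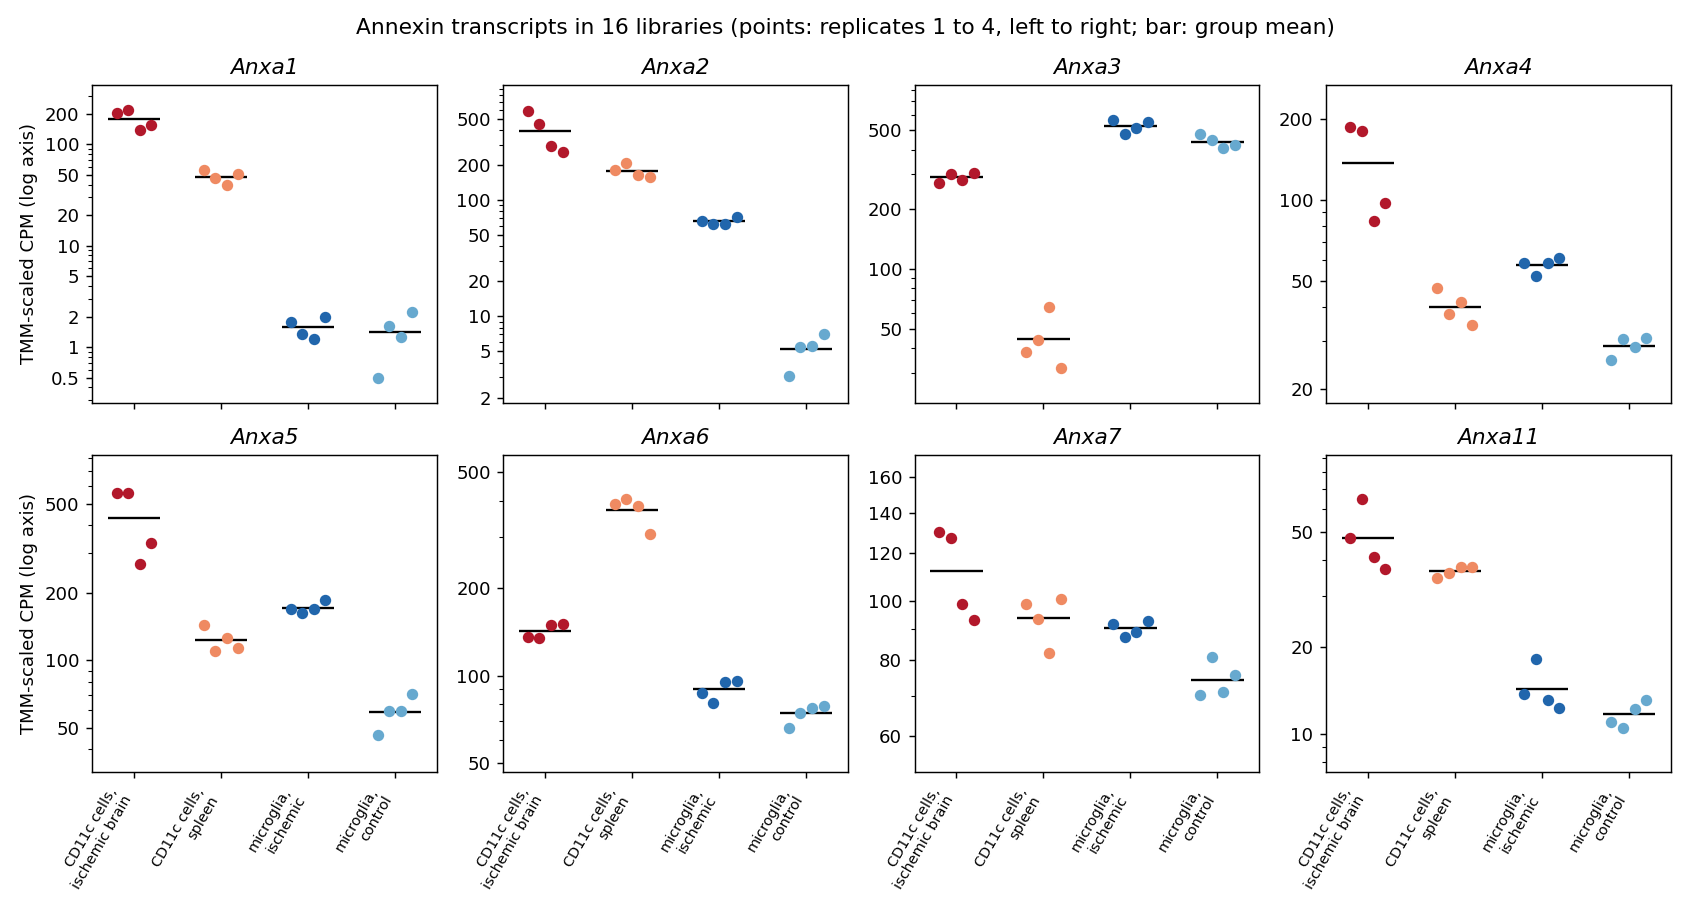
Each panel shows 1 annexin in 16 libraries as TMM-scaled CPM on a log axis whose range differs between panels. Points are replicates 1 to 4 from left to right and bars are group means. Anxa2, Anxa4 and Anxa5 step up between control microglia, ischemic microglia and CD11c brain cells, and Anxa6 and Anxa7 do so by less. Anxa1 is near 1 CPM in both microglia groups, and Anxa3 is lowest and Anxa6 highest in CD11c spleen cells. CD11c brain replicates 1 and 2 lie above replicates 3 and 4 for Anxa1, Anxa2, Anxa4, Anxa5, Anxa7 and Anxa11.

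The comparison of ischemic with control microglia asks how one sorted population differs after ischemia. Anxa2, Anxa4, Anxa5 and Anxa6 were higher in ischemic microglia and no annexin was lower, so that 4 of 8 were called, where 35.7% of all 16345 genes tested were called in either direction, 17.7% as higher and 18.0% as lower. The groups did not overlap for 6 of 8 members, all higher in ischemic microglia, beside 43.3% of genes tested that did not overlap in either direction. The median log2 difference was 0.29 over the 8 members and −0.05 over all genes tested. Anxa2 and Anxa5 carried the larger changes, and the calls on Anxa6 and the misses of Anxa3 and Anxa7 moved with the settings named above.

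CD11c brain cells against ischemic microglia is the comparison named in the title of the study, between 2 populations of the same hemisphere. All 8 annexins were called, with 7 higher in CD11c brain cells and Anxa3 lower, where 38.8% of genes tested were called, 19.7% as higher and 19.1% as lower. The groups did not overlap for any member, beside 31.4% of genes tested for which they did not overlap. The median was 1.29 over the members and 0.00 over all genes tested, and the values ran between −0.86 for Anxa3 and 6.83 for Anxa1.

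CD11c brain cells against CD11c spleen cells compares cells of 1 reporter line in 2 organs. Again 7 members were higher and 1 was lower in CD11c brain cells, now with Anxa6 as the lower one, but 64.2% of genes tested were called here, 31.2% as higher and 33.0% as lower, and the calls on Anxa7, whose difference is −0.01 with library totals as the only scaling, and Anxa11 were not stable. Groups did not overlap for 6 of 8 members, beside 55.2% of genes tested for which they did not overlap. The median was 1.46 over the members and −0.04 over all genes tested. This comparison and the one before it share the CD11c brain libraries. Anxa1 stood at 1.90 and 6.83, Anxa3 at 2.70 and −0.86, Anxa6 at −1.38 and 0.67, and Anxa11 at 0.38 and 1.73, for CD11c brain cells over CD11c spleen cells and over ischemic microglia in turn. Anxa4 (1.76 and 1.25) and Anxa5 (1.80 and 1.32) had values of like size in both.

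**Figure D3:**
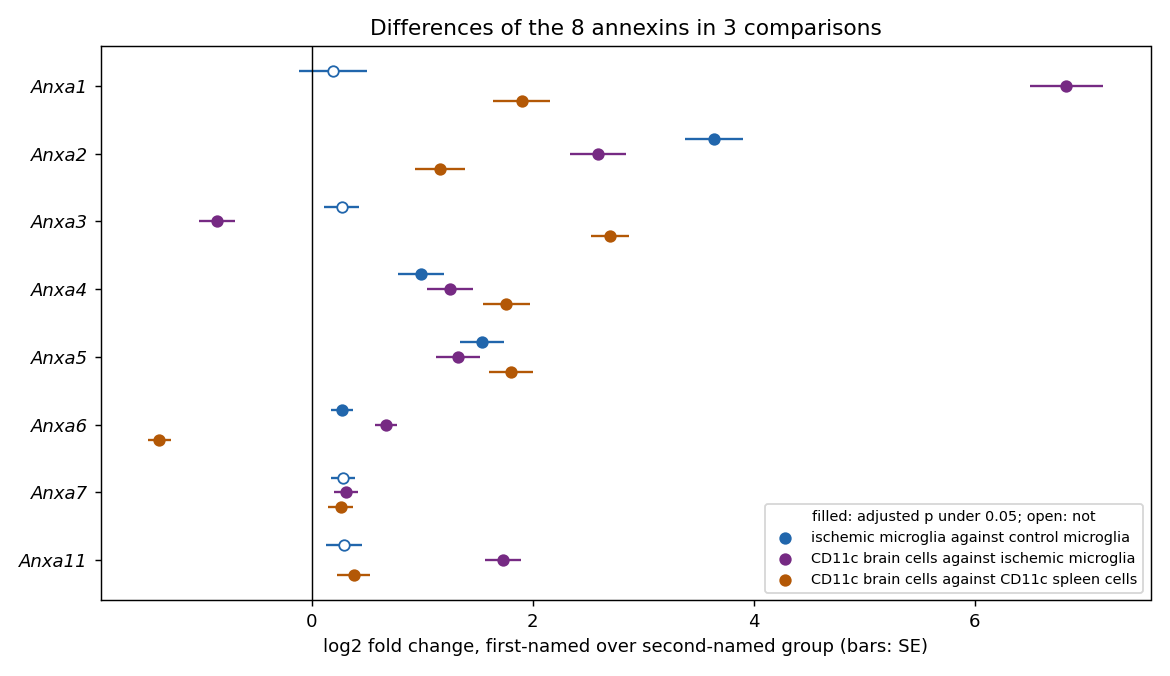
Points are log2 fold changes of the first-named over the second-named group for the 8 annexins, bars are SE, and filled points have an edgeR adjusted p under 0.05. Anxa1 reaches 6.83 for CD11c brain cells over ischemic microglia with 0.19 between the microglia groups, Anxa2 reaches 3.64 between the microglia groups, Anxa3 is negative only against ischemic microglia (−0.86) and Anxa6 only against CD11c spleen cells (−1.38).

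Over the 4 groups, control microglia had the lowest mean of 7 annexins, all but Anxa3, and CD11c brain cells the highest mean of 6, all but Anxa3 and Anxa6. Neighbours in that order that did not pass the test were ischemic and control microglia for Anxa1, Anxa3, Anxa7 and Anxa11, and CD11c spleen cells and ischemic microglia for Anxa7 (log2 0.06 ± 0.11; edgeR adjusted p = 0.661). The step of CD11c spleen cells over control microglia for Anxa4 was small (0.48 ± 0.20; adjusted p = 0.0479). It was lost without control replicate 1 or 3 or without spleen replicate 1, 2 or 3 (adjusted p 0.0567 to 0.122). The largest span was that of Anxa1, at 7.01 log2 units for CD11c brain cells over control microglia, followed by Anxa2 at 6.23. Anxa7 spanned 0.59. In these comparisons with control microglia 58.9% (CD11c brain cells) and 68.8% (CD11c spleen cells) of genes tested were called, and 68.5% between CD11c spleen cells and ischemic microglia. There Anxa3, Anxa4 and Anxa5 were lower in CD11c spleen cells, 3 of 8 members, beside 31.3% of genes tested that were lower.

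CD11c brain libraries differed among themselves in annexin levels. With 2 libraries on each side, pairs can separate by order alone, and the share of all genes tested that did so was not computed. Replicates 1 and 2 lay above replicates 3 and 4 for Anxa4, with means of 183 and 90.7 CPM, for Anxa2 (513 and 276 CPM), for Anxa5 (558 and 301 CPM), for Anxa11 (56.1 and 38.9 CPM), for Anxa1 (211 and 147 CPM) and for Anxa7 (128 and 96.1 CPM). Anxa3 overlapped between the pairs (287 and 294 CPM), and Anxa6 was lower in replicates 1 and 2 (135 and 150 CPM). Markers moved between the same pairs. Of 13 marker lists, the sums of 3 were higher in replicates 1 and 2 without overlap, those of 6 were lower and those of 4 overlapped. The 6 border macrophage markers summed to 519 and 510 CPM in replicates 1 and 2 and to 142 and 247 CPM in replicates 3 and 4, and the monocyte markers to 1781 and 1407 CPM against 1118 and 1115 CPM. The microglia markers were the third list that was higher in replicates 1 and 2, at 13978 and 14106 CPM against 13725 and 12612 CPM. Single markers ran against these sums: Plac8 of the monocyte list had 165 and 132 CPM in replicates 1 and 2 and 319 and 449 CPM in replicates 3 and 4. Lyve1 (1.70 and 0.364 CPM against 3.96 and 3.61 CPM) and Cd163 (6.35 and 3.45 CPM against 11.4 and 20.2 CPM) of the border macrophage list did so too, as did 4 of the 10 microglia markers. The 6 lists that were lower in replicates 1 and 2 were those of dendritic cells, oligodendrocytes (229 and 214 CPM against 396 and 443 CPM), endothelium, neurons, B cells and NK cells. The part of these lists in the annexin differences was not tested. With replicates 1 and 2 alone, CD11c brain cells exceeded ischemic microglia by 1.67 log2 units for Anxa4 and 1.70 for Anxa5, and with replicates 3 and 4 alone by 0.67 and 0.82. Anxa2 stood at 2.96 and 2.09 and Anxa1 at 7.06 and 6.56 in the same pair of fits. Anxa11 stood at 1.97 and 1.46, Anxa6 at 0.59 and 0.75 and Anxa3 at −0.88 and −0.83. For Anxa7, at 0.51 with replicates 1 and 2, the fit with replicates 3 and 4 gave no call (0.10; edgeR adjusted p = 0.421). Against CD11c spleen cells the pairs gave 2.14 and 1.58 for Anxa1, 2.19 and 1.14 for Anxa4 and 2.18 and 1.26 for Anxa5. They gave 2.69 and 2.69 for Anxa3, −1.45 and −1.34 for Anxa6, 1.54 and 0.61 for Anxa2, 0.46 and 0.00 for Anxa7, and 0.62 and 0.06 for Anxa11. With replicates 3 and 4, Anxa7 (adjusted p = 0.999) and Anxa11 (adjusted p = 0.73) were not called.

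For the gene lists that follow, the background is the share of all genes tested that was called (35.7%, 38.8% and 64.2%) and their median (−0.05, 0.00 and −0.04) in ischemic against control microglia, in CD11c brain cells against ischemic microglia, and in CD11c brain against CD11c spleen cells. The S100 genes, whose proteins bind annexins, were high in both CD11c groups and at a few CPM in both microglia groups. S100a10, whose protein is the partner of annexin A2, had 135, 80.7, 51.4 and 41.7 CPM in CD11c brain cells, 62.7, 92.8, 69.1 and 73.4 CPM in CD11c spleen cells, 2.76, 6.03, 2.46 and 3.97 CPM in ischemic microglia and 5.10, 6.17, 5.31 and 6.88 CPM in control microglia. The 2 microglia groups overlapped and differed by −0.62 ± 0.34 log2 units (edgeR adjusted p = 0.169), where Anxa2 differed by 3.64. The difference between these 2 genes was not tested. None of the 4 S100 genes (S100a10, S100a11, S100a6, S100a4) was called between the microglia groups, and their median difference was −0.12. All 4 were higher in CD11c brain cells than in ischemic microglia, with a median of 5.80. S100a6, a partner of annexin A11, averaged 149 ± 37.5 CPM in CD11c brain cells and 1.68 ± 0.508 CPM in ischemic microglia, a log2 difference of 6.47 (SD, n = 4 each; adjusted p = 4.61e-10). S100a11, a partner of annexin A1, averaged 83.9 ± 4.60 CPM in CD11c brain cells and 1.45 ± 0.424 CPM in ischemic microglia (log2 5.85; adjusted p = 1.86e-11). S100a4 differed by 5.75 (adjusted p = 1.16e-08) and S100a10 by 4.34 (adjusted p = 2.12e-07). Between the CD11c groups 1 of 4 was called, S100a6, by 1.12 (adjusted p = 0.000781), and S100a10 differed by 0.05 ± 0.31 (adjusted p = 0.895). With CD11c brain replicates 1 and 2 alone and with 3 and 4 alone, S100a10 stood at 4.82 and 3.63 over ischemic microglia. Over CD11c spleen cells it stood at 0.54 (adjusted p = 0.112) and at −0.71, where it was called as lower (adjusted p = 0.0338).

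**Figure D4:**
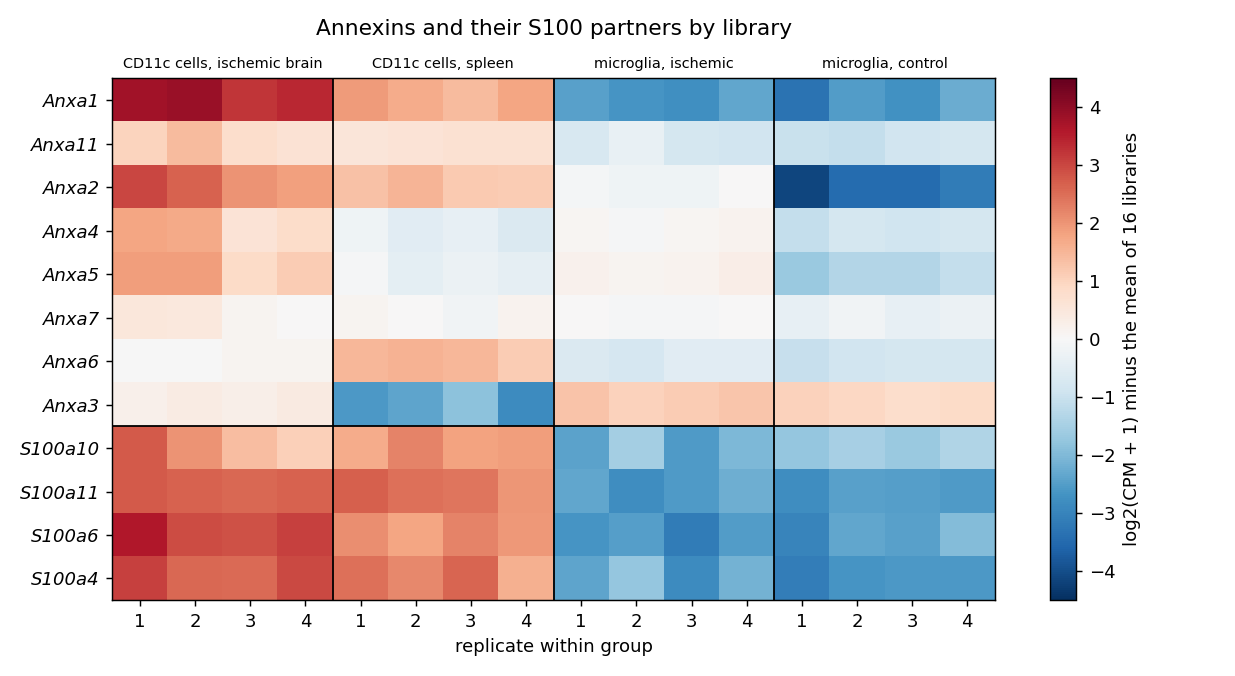
Rows are the 8 annexins and 4 S100 genes, columns are the 16 libraries by group and replicate, and colour is log2(CPM + 1) minus the mean of the row over all 16 libraries. All 4 S100 genes are below their mean in all 8 microglia libraries, while Anxa2 is near its mean in ischemic microglia and far below it in control microglia.

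Among the formyl peptide receptors, through which annexin A1 signals, 2 of 3 could be tested and Fpr3 had no count in any library. Neither Fpr1 nor Fpr2 was called between the microglia groups. Fpr1 had 1.22, 0.925, 1.58 and 0.411 CPM in CD11c brain cells and 52.5, 35.1, 41.0 and 60.7 CPM in CD11c spleen cells, without overlap (log2 −5.51; edgeR adjusted p = 2.94e-08). Fpr2 averaged 2.14 ± 1.08 CPM in CD11c brain cells and 10.9 ± 2.13 CPM in CD11c spleen cells (log2 −2.35; adjusted p = 0.00022). With CD11c brain replicates 1 and 2 alone Fpr2 stood at −1.93, and with 3 and 4 alone at −2.99. Neutrophils express both receptors, and 10 of 12 neutrophil markers were lower in CD11c brain cells without overlap. Csf3r ran the other way, with means of 307 CPM in CD11c brain cells and 108 CPM in CD11c spleen cells, and Mmp8 overlapped (12.9 and 7.51 CPM). The sums of all 12, 278 to 414 CPM in CD11c brain cells, with 3 of 12 at 1 CPM or more, and 315 to 1164 CPM in CD11c spleen cells, with 11 of 12 at 1 CPM or more, overlapped, and none was at 0. Their part in the receptor differences was not tested. Fpr2 was also higher in CD11c brain cells than in ischemic microglia (1.53; adjusted p = 0.0149). It stood at 1.95 with CD11c brain replicates 1 and 2 alone, and the call was lost with replicates 3 and 4 alone (0.94; adjusted p = 0.165).

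Of 9 plasminogen system genes, whose protease annexin A2 with S100A10 helps to form at the surface, 8 were tested. In ischemic against control microglia 4 were higher and none was lower, with a median of 0.99. Plaur, the urokinase receptor, had 188, 241, 185 and 257 CPM in ischemic microglia and 73.1, 23.0, 23.9 and 42.8 CPM in control microglia (log2 2.42; edgeR adjusted p = 2.18e-05). Plat, the tissue activator, was higher by 1.21 at about 1 CPM (adjusted p = 0.0338; lost with limma-voom at 0.209, with library totals as the only scaling, and without control replicate 2, 3 or 4 or ischemic replicate 2 or 4). In CD11c brain cells against ischemic microglia 1 was higher, Plat by 2.76, and 5 were lower, including Serpine2, an inhibitor of thrombin and urokinase, by −1.66 (adjusted p = 0.000218). Against CD11c spleen cells 6 were higher and 1 lower, with a median of 3.77, among them Serpine2 at 5.73 and Plat at 5.63. For CD11c brain replicates 1 and 2 alone and for 3 and 4 alone, Plat stood at 1.77 and 3.36 over ischemic microglia and at 4.65 and 6.18 over CD11c spleen cells. Plg, plasminogen itself, was not tested.

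Among 14 genes of membrane repair, the process in which annexins patch torn plasma membrane, 4 were higher and 2 lower in ischemic than in control microglia, with a median of 0.17. Capn1, the large subunit of the calcium-dependent protease calpain, had 43.0, 46.5, 39.9 and 42.8 CPM in ischemic microglia and 10.4, 14.3, 14.7 and 15.1 CPM in control microglia, without overlap (log2 1.66; edgeR adjusted p = 8.58e-07). Chmp4b, a subunit of the ESCRT filament that pinches off damaged membrane, was higher by 0.76 (adjusted p = 1.04e-05), and Capns1, the small calpain subunit, by 0.63 (adjusted p = 0.000518). In CD11c brain cells against ischemic microglia 7 were higher and 1 lower, with a median of 0.36. Ahnak, a large scaffold that binds annexin A2 with S100A10, had 366, 323, 303 and 106 CPM in CD11c brain cells and 13.9, 20.4, 10.7 and 18.8 CPM in ischemic microglia (log2 4.11; adjusted p = 2.87e-07). Myof (myoferlin) and Capn2 were higher by 3.89 and 2.11. With CD11c brain replicates 1 and 2 alone and with 3 and 4 alone, Myof stood at 4.38 and 3.15 and Capn2 at 2.68 and 1.16. Against CD11c spleen cells 7 were higher and 3 lower, and Dysf (dysferlin), the muscle repair protein that binds annexins, averaged 0.0978 ± 0.146 CPM in CD11c brain cells and 21.2 ± 5.31 CPM in CD11c spleen cells (adjusted p = 3.16e-08).

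A list of 7 genes was drawn up for phosphatidylserine exposure on the outer membrane leaflet, where annexins bind. One of them, Plscr3, is mitochondrial, so the list is not limited to that leaflet. Median differences over the list were 0.01 between the microglia groups, −0.13 for CD11c brain cells over ischemic microglia and 0.28 over CD11c spleen cells. In ischemic against control microglia 1 was higher and 1 lower: Plscr1, a membrane protein named as a scramblase, by 1.07 (edgeR adjusted p = 0.0185; lost with limma-voom at 0.255, without control replicate 2 at 0.055 and without ischemic replicate 2 at 0.0584) and Plscr3, its mitochondrial relative, by −0.72 (adjusted p = 7.26e-05). In CD11c brain cells Plscr1 had 48.5, 81.6, 147 and 168 CPM, in CD11c spleen cells 13.1, 15.8, 10.9 and 17.2 CPM, and in ischemic microglia 4.36, 4.81, 2.77 and 3.73 CPM. It was the 1 gene of the list higher in CD11c brain cells than in ischemic microglia (4.82; adjusted p = 2.95e-08), and it ran the other way to Anxa4 and Anxa5 between the replicate pairs of the CD11c brain group, at 4.05 with replicates 1 and 2 and 5.34 with 3 and 4. Xkr8, a caspase-activated scramblase, was lower in CD11c brain cells than in ischemic microglia (−1.05, edgeR adjusted p = 0.00746). Against CD11c spleen cells 3 genes of the list were called, all higher: Plscr1 by 2.96, Plscr3 by 1.19 and Tmem30a by 0.39.

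Glucocorticoid response genes were followed beside Anxa1. In ischemic against control microglia 2 of 8 were higher and 1 lower, with a median of 0.20. Fkbp5, a co-chaperone induced by glucocorticoids, had 128, 565, 132 and 391 CPM in ischemic microglia and 90.6, 77.4, 79.4 and 89.3 CPM in control microglia (log2 1.85; edgeR adjusted p = 0.0017). Replicates 2 and 4 were high for Fkbp5 and for Zbtb16 (12.2 and 6.32 CPM, against 0.526 and 0.209 CPM in replicates 1 and 3). Anxa1 in the same 2 libraries was 1.36 and 1.96 CPM, against 1.78 and 1.20 CPM in replicates 1 and 3. These Anxa1 levels rest on 46 to 74 counts per library. A link between Anxa1 and the glucocorticoid response genes was not tested in any comparison. The Zbtb16 call (2.75; adjusted p = 0.0195) was lost without ischemic replicate 2 (1.70; adjusted p = 0.108), without control replicate 1 or 2, without a filter, with only the 8 libraries and with limma-voom. Nr3c1, the glucocorticoid receptor, was 172 ± 17.4 CPM in ischemic microglia and 271 ± 15.8 CPM in control microglia (SD, n = 4 each; −0.66; adjusted p = 4.78e-05). In CD11c brain cells against ischemic microglia 1 was higher and 2 lower, with a median of −0.45, beside the 114-fold higher Anxa1. Against CD11c spleen cells 5 were higher and 1 lower, with a median of 2.05, led by Dusp1, a MAP kinase phosphatase, at 4.14 (adjusted p = 6.74e-11), Sgk1, a glucocorticoid-induced kinase, at 3.60 and Per1, a clock gene, at 3.31. These genes were also high in microglia, where Anxa1 was low. In CD11c brain cells, ischemic microglia and control microglia, Dusp1 averaged 603, 589 and 814 CPM. Sgk1 averaged 710, 1342 and 1113 CPM and Per1 343, 382 and 353 CPM, in the same order.

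Correlation of log2 CPM over the 16 libraries, which form 4 groups and are not independent points, describes which genes had patterns most like each annexin among 7252 genes with a mean of at least 20 CPM. Anxa5 ranked second of all these genes for Anxa4 (r = 0.979), behind Esd (0.987). Among pairs of members, Anxa4 with Anxa5 (0.98) and Anxa1 with Anxa11 (0.97) had the highest values and Anxa3 with Anxa6 the lowest (−0.95). Antxr2, a receptor for anthrax toxin, was the closest gene to both Anxa1 (0.994) and Anxa11 (0.979). Anxa2 was closest to Sri (0.988), the calcium-binding protein sorcin, and Ms4a4c (0.987). Anxa3 was closest to Ldhb (0.992), a lactate dehydrogenase subunit, and Capn3 (0.992). For Anxa6 the closest were Dennd2d (0.988), Stard5 (0.988) and Blk (0.988), the last a kinase of B cells. Anxa5 was closest to Arpc3 (0.983), a subunit of the actin-nucleating Arp2/3 complex, and Anxa7 to Tmem14c (0.962).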

How the data were processed

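Counts of reads per gene for 16 libraries were used as deposited by the authors. Per the labels' protocols, tissue was digested and passed over Percoll, cells were sorted by reporter fluorescence without staining, and stranded polyA libraries were made. Per the submitters' processing notes, FastQC 0.11.5 and STAR 2.5.3a were used with GRCm38. For the counting program, its strand setting, the annotation release and the time after ischemia, nothing is given in these sources. Gene symbols and coordinates came from GENCODE M21 (50376 of 50600 genes named). Exon lengths are merged exons of that release.

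Tests were two-sided quasi-likelihood F tests of edgeR 4.0.16 (R 4.3.3) with TMM scaling, filterByExpr and robust estimation, on all 16 libraries with a mean per group, adjusted by Benjamini-Hochberg over 16345 genes at 0.05. The script was tested on simulated counts. Alternatives were other scaling, filters, library sets, limma-voom (limma 3.58.1) and DESeq2 1.42.0, and, added after seeing the data, a block of title numbers that 2 groups share. Pairs of libraries within groups differed by more than sampling noise (chi-square per degree of freedom at least 10.2).

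The members and lists were chosen with earlier results of these data known. All 8 members are named, with up to 3 called genes with the largest change per list and comparison, list members singled out with their values, and for each member genes among the 3 most correlated. Promoters came from RefSeq, and the NF-kB, interferon-stimulated and glucocorticoid motifs were set to their usual consensus after a first search with other letters. One gene of the plasminogen list is counted in it but not reported here.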

Additional observations from a re-analysis of the deposited data

How the results depend on the processing

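Of 416 refits of the 8 annexins in the 3 comparisons of the report, 378 kept direction and side of the threshold, 30 lost a call, 6 gained one and 2 changed sign. The sign changed for Anxa1 in ischemic against control microglia without control replicate 1 (−0.10; edgeR adjusted p = 0.782; −0.10 to 0.47 over the libraries left out) and for Anxa7 in CD11c brain against CD11c spleen cells with library totals as the only scaling (−0.01; adjusted p = 0.918). Anxa7 between CD11c spleen cells and ischemic microglia, not called, went to −0.06 without a filter and −0.03 with only the 8 libraries compared. In that comparison 3 members were lower; library totals left 1, and leaving out 1 library gave 1 to 3. The cause was not tested. Library totals shifted the median of all genes by −0.15, 0.10 and −0.27 (ischemic against control microglia, CD11c brain cells against ischemic microglia, and against CD11c spleen cells). Of all calls, 33.5%, 62.4% and 34.9% were then higher, against 49.5%, 50.7% and 48.6% with TMM. Anxa7 in CD11c brain cells against ischemic microglia was also lost without a filter (0.25; adjusted p = 0.138), and against CD11c spleen cells it was lost with limma-voom (adjusted p = 0.0515), with only the 8 libraries (0.105) and without spleen replicate 2 or 3. Anxa11 in that comparison was lost with library totals (0.10; adjusted p = 0.553) and with only the 8 libraries (0.0595). Counts of 20 to 77 per library limit Anxa1 in microglia. S100a10 between the CD11c groups, not called, went to −0.24 with library totals, −0.08 with limma-voom and −0.71, then called as lower, with CD11c brain replicates 3 and 4 (−0.39 to 0.26 over the libraries left out). No paired analysis was possible for the 3 comparisons of the report because their groups share fewer than 2 title numbers. Titles of CD11c spleen cells and ischemic microglia share 3 numbers, but these are 2 mouse lines, and same-numbered libraries did not deviate together (r = −0.06 to −0.01 over 15620 genes; no library correlated best with its own number). A replicate block of that number, chosen after seeing the data, gave 10530 calls in those libraries, against 11064 without the block and 11195 with all libraries. In each fit 4 annexins were higher and 3 lower, and Anxa7, not called, was at −0.05 with and without the block.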

Other observations

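Of the other 4 annexin genes in the annotation, Anxa9, which lacks typical calcium-binding sites, averaged 3.98 ± 0.841 CPM in CD11c brain cells, 6.78 ± 0.692 in CD11c spleen cells, 3.86 ± 0.568 in ischemic microglia and 3.43 ± 0.405 in control microglia (SD, n = 4 each). CD11c brain cells were below CD11c spleen cells by a log2 difference of −0.77 ± 0.19 (edgeR adjusted p = 0.00194). Anxa8 had 1.15, 1.34, 1.27 and 0.348 CPM in CD11c brain cells and 0.373, 1.42, 0.227 and 0.440 CPM in CD11c spleen cells, and no count in any of the 8 microglia libraries. Anxa10 and Anxa13 had at most 5 counts in any library and were not tested.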
